A study of Mus musculus with 22 samples.

Results

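Vegfa, Kdr, Epas1, Pecam1 and Ptprb are a growth factor, its main endothelial receptor, a hypoxia-regulated transcription factor and a pair of endothelial surface proteins, and they were followed here through lung development in the mouse. They were taken as every probe set on either chip that carries 1 of these 5 symbols and no other. This gave 5 of the 6117 genes named on the chips and 6 probe sets of 13156, with 2 for Epas1 and 1 for each other gene, and all 6 passed the filter on low signals. The lungs were normal whole lungs of Swiss Webster mice, untreated and with no allele named in the labels. They were taken on embryonic days 12, 14, 16 and 18 (E12 to E18), on postnatal days 1, 4, 7, 10, 14 and 21 (P1 to P21) and from adults. Each of the 11 ages had 1 RNA pool from at least 3 lungs, hybridised once to each chip of an Affymetrix pair, here chip A and chip B, so that a value at 1 age has n = 1. Signals are the deposited linear intensities, 1 per probe set and array.

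VEGF-A is a secreted growth factor that endothelial cells need in order to form and keep vessels, and in the lung much of it is made by the epithelium that lines the airspaces. Kdr, also called VEGF receptor 2 or Flk1, is the tyrosine kinase that carries most of its signal in endothelial cells. Epas1 encodes HIF-2alpha, the oxygen-labile subunit of a transcription factor that pairs with Arnt and is abundant in endothelium and in lung epithelium, and Vegfa is among the genes known to respond to it. Pecam1 (CD31) is an adhesion molecule of endothelial junctions that is also found on platelets and leukocytes. Ptprb encodes VE-PTP, a receptor phosphatase of endothelial cells that acts on the angiopoietin receptor Tek, on VE-cadherin and on Kdr.

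The sequence before the transcription start is shown for Vegfa and Kdr, the ligand and its receptor. The 250 bases upstream of the start are printed from RefSeq on GRCm38.p6, both on the minus strand, Vegfa at chr17:46032378-46032627 and Kdr at chr5:75978456-75978705. Capitals mark the GC box GGGCGG and the hypoxia response cores ACGTG and GCGTG on either strand.
Vegfa: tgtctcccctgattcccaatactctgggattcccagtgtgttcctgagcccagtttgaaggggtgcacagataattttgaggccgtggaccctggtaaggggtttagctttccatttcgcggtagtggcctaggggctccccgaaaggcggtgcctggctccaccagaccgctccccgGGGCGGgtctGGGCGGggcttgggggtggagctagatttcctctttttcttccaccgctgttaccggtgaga
Kdr: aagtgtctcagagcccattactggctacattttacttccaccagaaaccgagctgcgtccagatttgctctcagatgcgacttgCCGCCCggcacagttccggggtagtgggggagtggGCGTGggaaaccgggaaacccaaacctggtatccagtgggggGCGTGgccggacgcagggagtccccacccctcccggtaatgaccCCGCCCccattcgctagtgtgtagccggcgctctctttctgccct
Motifs were searched on both strands of the 300-base window that runs from 250 bases before to 50 after the start. The Vegfa window held 2 GC boxes and 0 hypoxia response cores, and the Kdr window held 2 GC boxes and 2 cores. Bases further upstream were not searched, so a count of 0 does not show that Vegfa lacks such a core. A second Vegfa start from RefSeq, with its window at chr17:46025114-46025413, held 1 GC box and 2 cores. This start lies inside the gene, 7214 bases from its outer 5′ end, and the Kdr start lies 617 bases from its own. The windows of these 2 starts lie wholly within the span of their genes. Their matches are therefore in sequence of the gene itself, and whether any fall in coding sequence was not examined. Of 32851 mouse promoters of that length, 35.7% held a GC box and 43.8% held a hypoxia response core. The ETS core GGAA, bound by a factor family active in endothelium, occurred 6 times in the Vegfa window, 5 times in that of Kdr and in 96.0% of all promoters, and its longer form CAGGAAG, present in 13.3%, occurred in neither. These matches describe letters in the windows, and binding was not measured. Promoters of Epas1, Pecam1 and Ptprb are not shown.

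Vegfa was low in the early lung and rose steadily to birth. Its signal (probe set M95200_s_at, chip A) was 91.3 at E12, 121.6 at E14, 218.8 at E16 and 595.8 at E18. It was 1375.7 at P1, 879.4 at P4, 676.2 at P7, 679.4 at P10, 1357.5 at P14, 1251.1 at P21 and 1679.5 in the adult. Every embryonic pool lay below every postnatal pool, and after birth there was a high value at P1, a trough over P4 to P10 and a second high level from P14 onwards. The E18 pool was close to the P7 and P10 pools, the lowest of the trough.

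The receptor Kdr was the member with the strongest early signal relative to its own later range. Its signal (x59397_s_at, chip B) was 823.8 at E12, 794.2 at E14, 1026.4 at E16 and 1704.7 at E18. It was 1901.3 at P1, 2959.7 at P4, 3022.6 at P7, 3412.1 at P10, 3378.3 at P14, 2081.5 at P21 and 2589.5 in the adult. Its 4 lowest pools were the embryonic ones, and its highest 4 were those of P4, P7, P10 and P14. Vegfa was in its trough at the first 3 of these and high again at P14. Between its highest and lowest ages Kdr spanned 4.3-fold, against 18.4-fold for Vegfa.

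Epas1 was near the chip's floor in the early embryo. The floor, the 25th percentile of each chip's signals to which lower values were raised before logs were taken, was 72.3 on chip A and 47.3 on chip B. The probe set standing for Epas1 (d89787_at, chip A) read 106.5 at E12, 72.9 at E14, 138.3 at E16, 360.7 at E18, 708.1 at P1, 1077.3 at P4, 619.6 at P7, 1068.5 at P10, 1280.5 at P14, 1155.1 at P21 and 1876.5 in the adult. The other Epas1 probe set (d89787_g_at, chip A), named for the same GenBank entry and so no independent measurement of the gene, read 68.7 at E12, 48.7 at E14, 53.9 at E16, 402.3 at E18, 743.8 at P1, 1090.7 at P4, 597.4 at P7, 731.3 at P10, 1013.2 at P14, 1220.9 at P21 and 1951.4 in the adult. Both put the adult highest and P7 lowest among the postnatal pools. At E12, E14 and E16 the first was above the floor, at E14 only just, and the second below it, so the level of Epas1 at these ages rests on 1 probe set.

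Pecam1, the junction molecule, was low at E12 and E14 and higher from E16 onwards. Its signal (L06039_s_at, chip A) was 165.0 at E12, 166.4 at E14, 421.1 at E16 and 817.3 at E18. It was 1192.1 at P1, 1157.1 at P4, 992.9 at P7, 1140.0 at P10, 1685.4 at P14, 979.1 at P21 and 1321.9 in the adult. The E12 and E14 pools were nearly equal, and the E18 pool came close to the lowest postnatal pool, that of P21, without overlapping the postnatal range.

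Ptprb, the receptor phosphatase, had the widest range of the 5 genes. Its signal (chip B) was 99.6 at E12, 27.4 at E14, which is under the floor, 193.5 at E16 and 592.3 at E18. It was 1088.8 at P1, 1831.3 at P4, 1992.2 at P7, 2458.8 at P10, 3497.2 at P14, 1822.9 at P21 and 3580.7 in the adult. The floored signals spanned 75.7-fold, with no order to be read below the floor. From P1 to P14 each pool was higher than the one before, and P21 fell back to the level of P4.

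**Figure D1:**
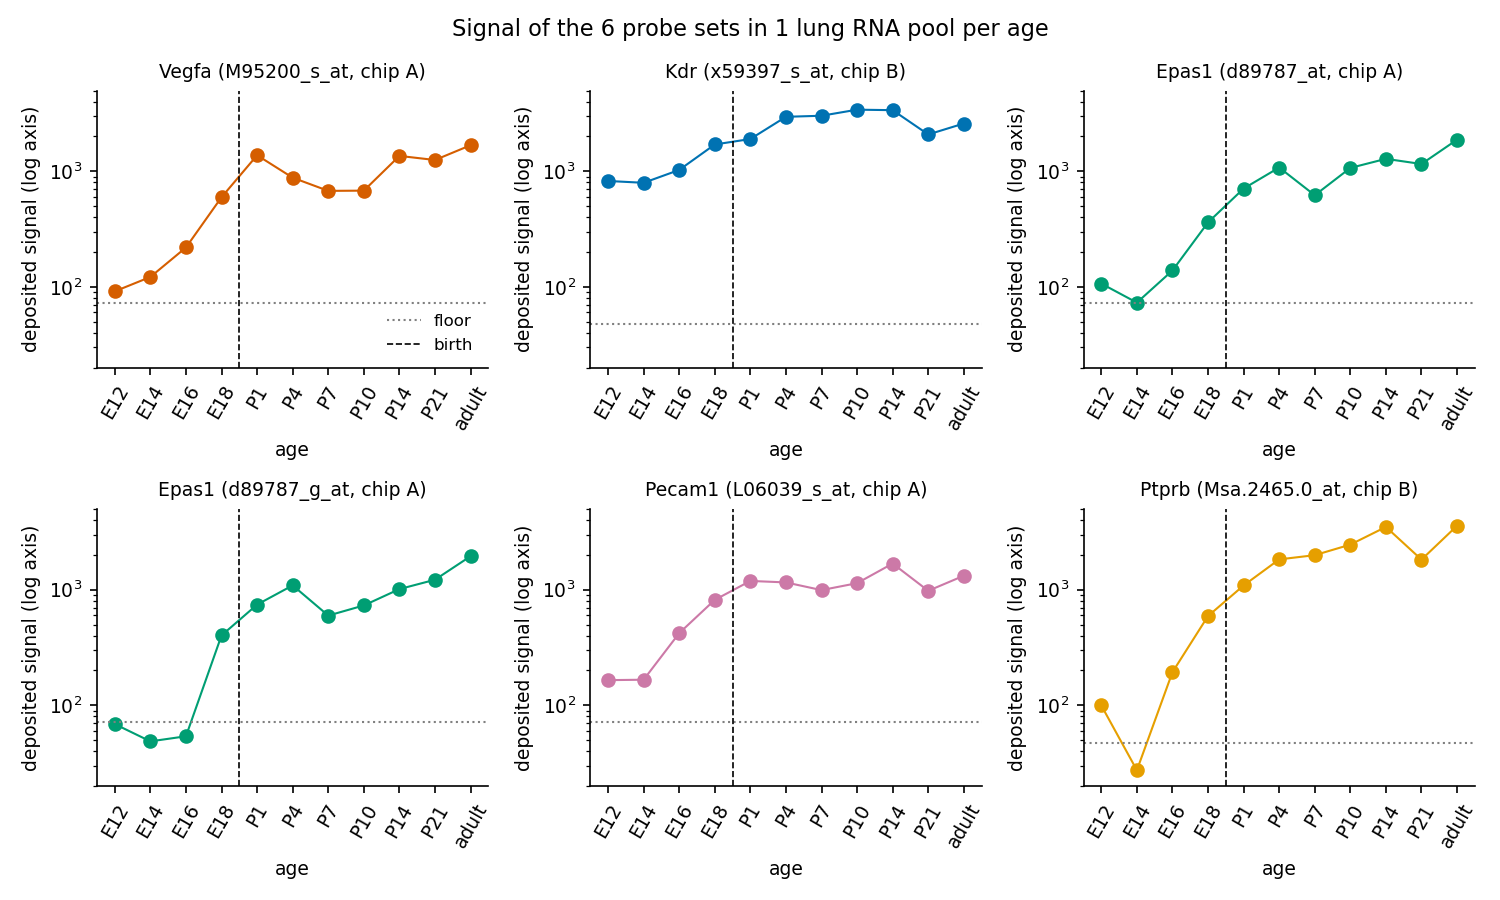
Deposited signal (log axis) of the 6 probe sets at the 11 ages, 1 point per RNA pool, with the chip's floor as a dotted line and birth as a dashed line. In each panel the 4 embryonic points lie below the 7 postnatal points, a separation not counted over all genes. Vegfa, at 676.2 and 679.4 at P7 and P10, shows a trough that Kdr, at 3022.6 and 3412.1, does not.

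Each of the 5 genes was higher after birth than before it. On the log2 scale the embryonic and postnatal means were 7.61 ± 1.2 and 10.06 ± 0.53 for Vegfa (SD, n = 4 and 7 ages, as for the genes that follow), 10.01 ± 0.51 and 11.40 ± 0.33 for Kdr, 7.13 ± 0.98 and 10.04 ± 0.53 for Epas1, 8.28 ± 1.12 and 10.22 ± 0.27 for Pecam1, and 7.25 ± 1.55 and 11.08 ± 0.60 for Ptprb. The adjusted p of limma, over the 4130 genes kept, ranged from 0.00136 for Epas1 to 0.00601 for Pecam1, and 16.8% of those genes were called higher in the same fit at adjusted p under 0.05. The differences ranked 10 (Ptprb), 31 (Epas1), 52 (Vegfa), 97 (Pecam1) and 226 (Kdr) among the 4130 genes. For the second Epas1 probe set the difference was 3.14 ± 0.47 (SE, adjusted p = 0.00199) in a fit of 4887 probe sets, of which 16.8% were called higher. With age order added to the fit none of the 5 genes was called (limma adjusted p from 0.349 for Epas1 to 0.535 for Vegfa), and over all genes 4 were called higher and 1 lower. The exact permutation test over the 330 ways of dividing the ages gave p = 0.00303 for each gene, the smallest it can give. In each gene all embryonic pools lay below all postnatal pools. The share of all genes with that separation was not counted. The spread here is that between different ages of an era rather than between replicates, and adjacent ages are alike, which makes every p-value here likely smaller than it should be. In whole lung, more of the cells that express a gene, endothelial or other, and more of its RNA per cell cannot be told apart.

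The 5 genes did not rise by the same amount. Of the 10 pairs, 6 differed in their rise between eras by an exact two-sided permutation test adjusted over the 10 pairs. Ptprb rose more than Kdr (difference of Kdr minus Ptprb -2.44 ± 0.56 log2 units, SE, exact permutation test, adjusted p = 0.0152) and more than Pecam1 (-1.89 ± 0.35, exact permutation test, adjusted p = 0.0152). These were the 2 pairs whose call held in all 14 alternatives tried. Epas1 rose more than Kdr (difference of Kdr minus Epas1 -1.52 ± 0.33, exact permutation test, adjusted p = 0.0202) and more than Pecam1 (0.97 ± 0.27, exact permutation test, adjusted p = 0.0242), and less than Ptprb (-0.93 ± 0.34, exact permutation test, adjusted p = 0.0242). Vegfa rose less than Ptprb (-1.38 ± 0.44, exact permutation test, adjusted p = 0.0303), a call that was lost in 6 of the 11 fits that left out 1 age. The differences of Epas1 from Kdr, Pecam1 and Ptprb were lost in 2, 3 and 3 of those 11 fits, each time when an embryonic age was left out. Leaving out an age leaves fewer ways of dividing the ages, fewest for an embryonic age, which raises the smallest p the test can give. A call can thus be lost with little change in the difference. Kdr minus Epas1 was -1.51 without E16 and -1.33 without E14, against -1.52 with all ages. Vegfa and its receptor Kdr differed by 1.07 ± 0.46 (exact permutation test, adjusted p = 0.072), Vegfa and Pecam1 by 0.52 ± 0.21 (exact permutation test, adjusted p = 0.072), Kdr and Pecam1 by -0.55 ± 0.35 (exact permutation test, adjusted p = 0.118), and Vegfa and Epas1 by -0.45 ± 0.30 (exact permutation test, adjusted p = 0.161). Those 4 pairs did not pass, which does not show that they rose alike. The Ptprb differences use an E14 value raised to the floor, so they are smaller than the raw signals would give.

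The rise had a different course in each gene. Taking the log2 rise from the mean of E12 and E14 to the highest age as the whole, Pecam1 had covered 40.2% at E16, 68.8% at E18 and 85.1% at P1. Vegfa had covered 26.4% at E16, 62.6% at E18 and 92.8% at P1, and then stood at 67.1% at P7 and 67.3% at P10. Epas1 had covered 14.7% at E16, 46.1% at E18 and 68.1% at P1. Pecam1 was thus furthest along at E16 and E18 and Vegfa at P1, while Epas1 was last at E16 and E18. Kdr had covered 16.5% at E16, 51.8% at E18 and 59.4% at P1, and reached 90.1% at P4. Ptprb had covered 26.2%, 54.5% and 69.9% at those 3 ages, and 83.0% at P4. At P1, Kdr was the gene with most of its rise still to come. With 1 pool per age these shares have no error.

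**Figure D2:**
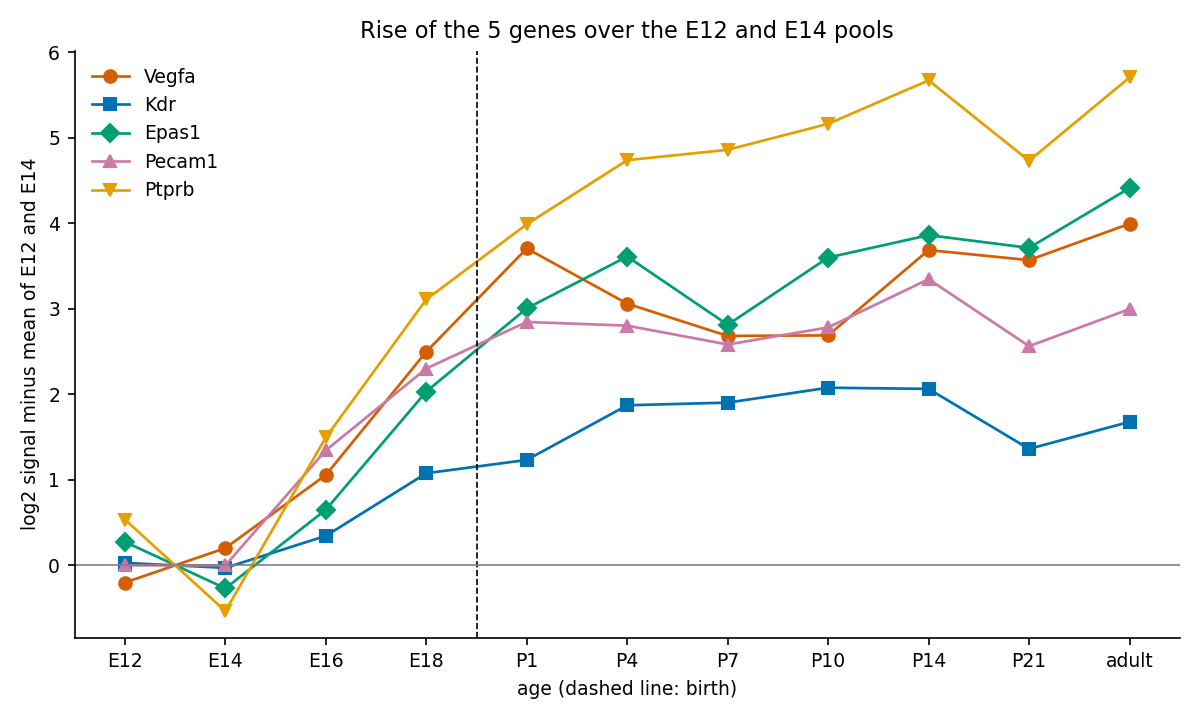
Log2 signal of the 5 genes minus their own mean over the E12 and E14 pools, at the 11 ages, with signals under the floor raised to it. Ptprb rises most, to 52.18-fold in the adult, and Kdr least, to 4.22-fold at P10, and Vegfa is at 13.05-fold at P1 and 6.42-fold at P7.

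A straight line over age order, with E12 as the first step and the adult as the last, rose in all 5 genes. The slope was 0.59 ± 0.08 log2 units per step for Ptprb (SE, limma adjusted p = 0.000465), 0.45 ± 0.06 for Epas1 (adjusted p = 0.000251), 0.38 ± 0.07 for Vegfa (adjusted p = 0.0012), 0.29 ± 0.06 for Pecam1 (adjusted p = 0.00271) and 0.20 ± 0.04 for Kdr (adjusted p = 0.00324). Of the 4130 genes, 22.1% were called as rising in this fit. The line was also fitted within each era. Over the 4 embryonic ages the slope was 0.90 ± 0.14 per step for Vegfa and 0.83 ± 0.15 for Pecam1, but with 2 residual degrees of freedom neither passed (limma adjusted p = 0.0941 and 0.097), and 0 of 4130 genes (0%) were called in that fit, against 1069 at an unadjusted p under 0.05. The embryonic slopes were 0.97 ± 0.34 for Ptprb, 0.62 ± 0.22 for Epas1 and 0.35 ± 0.12 for Kdr (limma adjusted p = 0.177, 0.185 and 0.164). Within the 7 postnatal ages the slopes were 0.21 ± 0.07 for Ptprb, 0.20 ± 0.06 for Epas1, 0.10 ± 0.08 for Vegfa, 0.03 ± 0.05 for Pecam1 and 0.02 ± 0.06 for Kdr. None of the 5 passed there (limma adjusted p from 0.106 for Epas1 to 0.875 for Kdr), and 1.86% of all genes were called as rising. The difference between the embryonic and postnatal slopes was not tested.

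Between neighbouring ages the largest steps fell before birth, in some genes 1 step earlier than in others. These steps compare 1 pool with 1 pool, so a step was counted when it was more than 2-fold and its higher signal lay above the chip's median. From E14 to E16, Ptprb was 4.09-fold above its floored value and Pecam1 2.53-fold higher, while Epas1 stood at 1.90-fold, Vegfa at 1.80-fold and Kdr at 1.29-fold. In that step 4.21% of genes were counted as higher. The Ptprb step rests on its E14 pool, which lay under the floor. From E12 to E14 the floored Ptprb value had been 2.11-fold lower. Its E16 signal was 193.5, beside 99.6 at E12. From E16 to E18, Ptprb was 3.06-fold higher, Vegfa 2.72-fold and Epas1 2.61-fold, with Pecam1 at 1.94-fold and Kdr at 1.66-fold, and 8.33% of genes were counted. The second Epas1 probe set was 5.56-fold above the floor after the same step. Vegfa was the member that also passed the 2-fold mark at birth, at 2.31-fold from E18 to P1, where 4.12% of genes were counted. Over that step Epas1 stood at 1.96-fold, Ptprb at 1.84-fold, Pecam1 at 1.46-fold and Kdr at 1.12-fold. No step of Kdr passed 2-fold at any age.

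After birth the members moved in different directions. From P1 to P4 Vegfa was lower (log2 ratio -0.65), a ratio that only 5.7% of genes lay below, while Ptprb, Kdr and Epas1 stood 0.75, 0.64 and 0.61 higher. From P4 to P7 Epas1 was lower (-0.80), with 2.7% of genes below it, as was the second Epas1 probe set (-0.87). From P10 to P14 Vegfa was higher by 1.00, just short of the 2-fold mark, and 97.8% of genes had a lower ratio. Kdr moved by -0.01 in that step. From P14 to P21 the 3 endothelial surface genes were lower together, Ptprb by -0.94, Pecam1 by -0.78 and Kdr by -0.70, with 3.7%, 5.4% and 6.7% of genes below them. Over the same interval Vegfa stood at -0.12 and Epas1 at -0.15, and the second Epas1 probe set was 0.27 higher.

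Lists of genes known from thymus, muscle and squamous epithelium had their highest summed signal at P1 or P21. The summed signal of the T cell and thymus list, of which 4 of 9 genes were kept, was 2770 at P1 and 524 to 1691 at the other ages. The heart and skeletal muscle list (8 of 12 kept) summed to 30709 at P21, 25507 at P1 and 6700 to 17637 elsewhere, and the oesophagus and squamous list (4 of 8 kept) to 6755 at P21 and 1236 to 2058 elsewhere. Single genes gave a large part of these sums, with Thy1 at 1211.2 at P1 and Acta1 at 8466.5 and Krt4 at 4292 at P21. Whether tissue from outside the lung was in these pools was not tested. Any part of such tissue in the P1 value of Vegfa or the P21 values of Kdr, Pecam1 and Ptprb was not tested either. Without the P1 and P21 pools all 5 genes were still called higher after birth. In that fit 554 genes in all were called higher, against 695 with all ages.

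**Figure D3:**
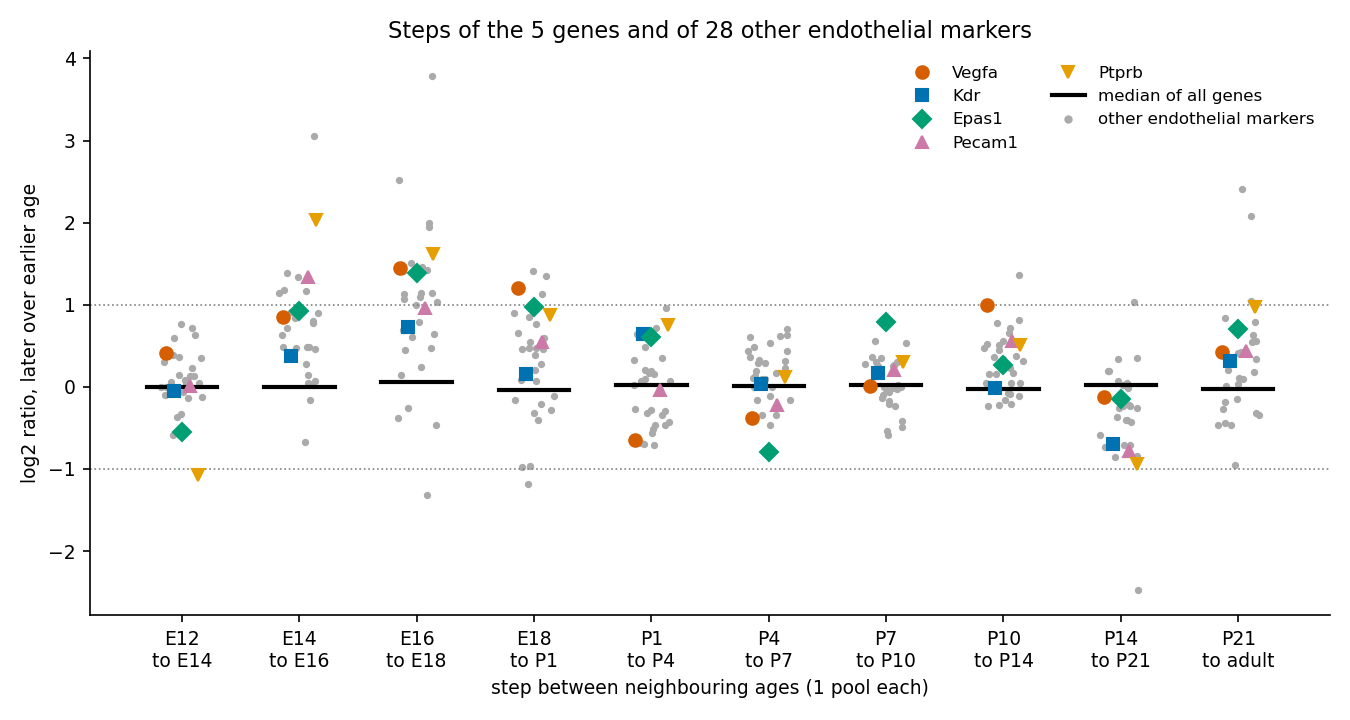
Log2 ratio of the later over the earlier age for each of the 10 steps, for the 5 genes (large symbols) and 28 other endothelial markers (grey points), with the median of all 4130 genes as a bar and dotted lines at 2-fold. Upward steps of the 5 genes past 2-fold lie between E14 and P1, and Kdr, Pecam1 and Ptprb lie between -0.70 and -0.94 from P14 to P21.

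The other endothelial markers gave the setting of these genes. Of 65 listed endothelial markers 43 were on the chips and 32 were kept. Leaving out Kdr, Epas1, Pecam1 and Ptprb, 28 remained, of which 23 were higher after birth, 0 lower (0 also at an unadjusted p under 0.05 in limma) and 5 did not pass, with a median difference of 1.37 log2 units. Over all genes 16.8% were called higher and the median was 0.01. The largest were Cd36, a fatty acid receptor of microvessels and macrophages, at 4.60 ± 0.82 (SE, limma adjusted p = 0.00379), and the water channel Aqp1 at 4.12 ± 0.85 (limma adjusted p = 0.00716). The 5 that did not pass, named after their values were seen, were Emcn (-0.29), Fli1 (-0.06), Selp (0.22), Ednrb (0.30) and Vcam1 (0.56). Without the E12 and P7 pools, 14 of the 28 were called higher and 14 did not pass. Calls fell over all genes as well, with 274 called higher in that fit against 695 with all ages. Signals at least 2-fold higher were seen in 5 of the 28 from E14 to E16, in 13 from E16 to E18 and in 3 over birth, against 4.21%, 8.33% and 4.12% of all genes. From P14 to P21, 20 of 28 were lower, with a median of -0.25, as were 47.2% of all genes. In 17 of 28 the P21 pool lay below both P14 and the adult, as it did for Kdr, Pecam1, Ptprb, Vegfa and the main Epas1 probe set, and for 31.1% of all genes.

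Of the listed ligands and receptors of the VEGF family 7 of 10 were kept, with a median difference of 1.29 against 0.01 for all genes. This median and the count that follows include the members Vegfa and Kdr, so neither is separate support. In the list 4 genes rose after birth, where 16.8% of all genes were called higher. Beside Vegfa and Kdr these were Flt1, the receptor that also acts as a decoy for VEGF-A, at 1.80 ± 0.35 (SE, limma adjusted p = 0.0054), and the co-receptor Nrp1 at 1.29 ± 0.26 (limma adjusted p = 0.00629). Flt1 lay under the floor at E12 and E14 with 55.8 and 63.8, was 162.3 at E18 and 140.9 at P1, and was highest in the adult at 498.9. Its E18 pool was thus above its P1 pool, and its eras overlapped, unlike those of Kdr. Nrp1 read 532.3 at E12, 1522.4 at E18 and 1589.0 to 2222.8 after birth, with its eras apart.

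The other 3 kept genes of the family are all ligands, and none of them passed. Vegfb, a ligand of Flt1, stood at -0.45 ± 0.17 (SE, limma adjusted p = 0.0639) and was called lower when the P1 and P21 pools were left out. Vegfd, a ligand of Flt4 known for its high level in lung, stood at 0.40 ± 0.38 and went from 363.1 at E12 to 1837.1 at E18, its highest pool, then to 722.8 at P1. Pgf, the placenta growth factor, stood at 0.08 ± 0.15 and read between 356.8 and 512.9 at every age. Vegfc and Flt4 were on the chips but did not pass the filter on low signals. These 3 ligands were named after their values were seen.

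The list of angiopoietin and Tie genes, which includes Ptprb itself, had 4 of 6 members kept, and all 4 rose, with a median of 0.93. Over all genes 16.8% were called higher and the median was 0.01. Beside Ptprb these were the angiopoietin-like Angptl4 at 0.98 ± 0.20 (SE, limma adjusted p = 0.00679), the orphan receptor Tie1 at 0.88 ± 0.29 (limma adjusted p = 0.0397) and the Tek ligand Angpt2 at 0.84 ± 0.27 (limma adjusted p = 0.0333). Tie1 read 2168.0 at E12 and 7485.7 at E18, and its postnatal pools, from 5645.2 to 8566.3, overlapped with E18. Angptl4 had its lowest pool at E18, at 181.4, and its highest at P1, at 651.4. Tek, the receptor that VE-PTP dephosphorylates, and Angpt1 did not pass the filter on low signals. Without the E12 and P7 pools Ptprb and Angptl4 were called and Tie1 and Angpt2 were not, and without P1 and P21 Tie1 was not. In these fits 274 and 554 genes in all were called higher, against 695 with all ages.

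Of the HIF subunits and their regulators 3 of 11 were kept, and Epas1 was the 1 that rose. Hif1a, which encodes the related subunit HIF-1alpha, stood at -0.25 ± 0.19 (SE, limma adjusted p = 0.327) and read between 208.5 at P21 and 417.7 at P4. Its embryonic pools, from 327.4 to 376.5, lay inside its postnatal range. The prolyl hydroxylase Egln2 stood at -0.11 ± 0.14 (limma adjusted p = 0.57). The partner subunits Arnt and Arnt2 and the ubiquitin ligase subunit Vhl did not pass the filter on low signals. RNA on these chips does not measure HIF protein, which is set mainly by its breakdown.

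Known hypoxia targets did not follow Epas1 and Vegfa as a group. Of 27 listed genes 18 were kept, 1 rose, 7 fell and 10 did not pass, with a median difference of 0.01, the same as for all genes, of which 14.2% were called lower. The riser was Edn1, an endothelium-derived vasoconstrictor, at 1.53 ± 0.51 (SE, limma adjusted p = 0.0414), which did not pass without the E12 and P7 pools. The 7 that fell all encode enzymes of glycolysis, led by Hk2 (-1.86 ± 0.38, limma adjusted p = 0.00693), Tpi1 (-1.2 ± 0.18, limma adjusted p = 0.00166) and Gapdh (-1.13 ± 0.20, limma adjusted p = 0.0035). Hk2 read 1165.1 at E12 and 1238.6 at E14, then 100.5 at P7 and 451.0 in the adult. The probe sets of Gapdh and Tpi1 are of a kind that can share signal with near-identical copies. Without the E12 and P7 pools 6 of these 7 were called lower. In that fit 150 genes in all were called lower, against 586 with all ages.

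**Figure D4:**
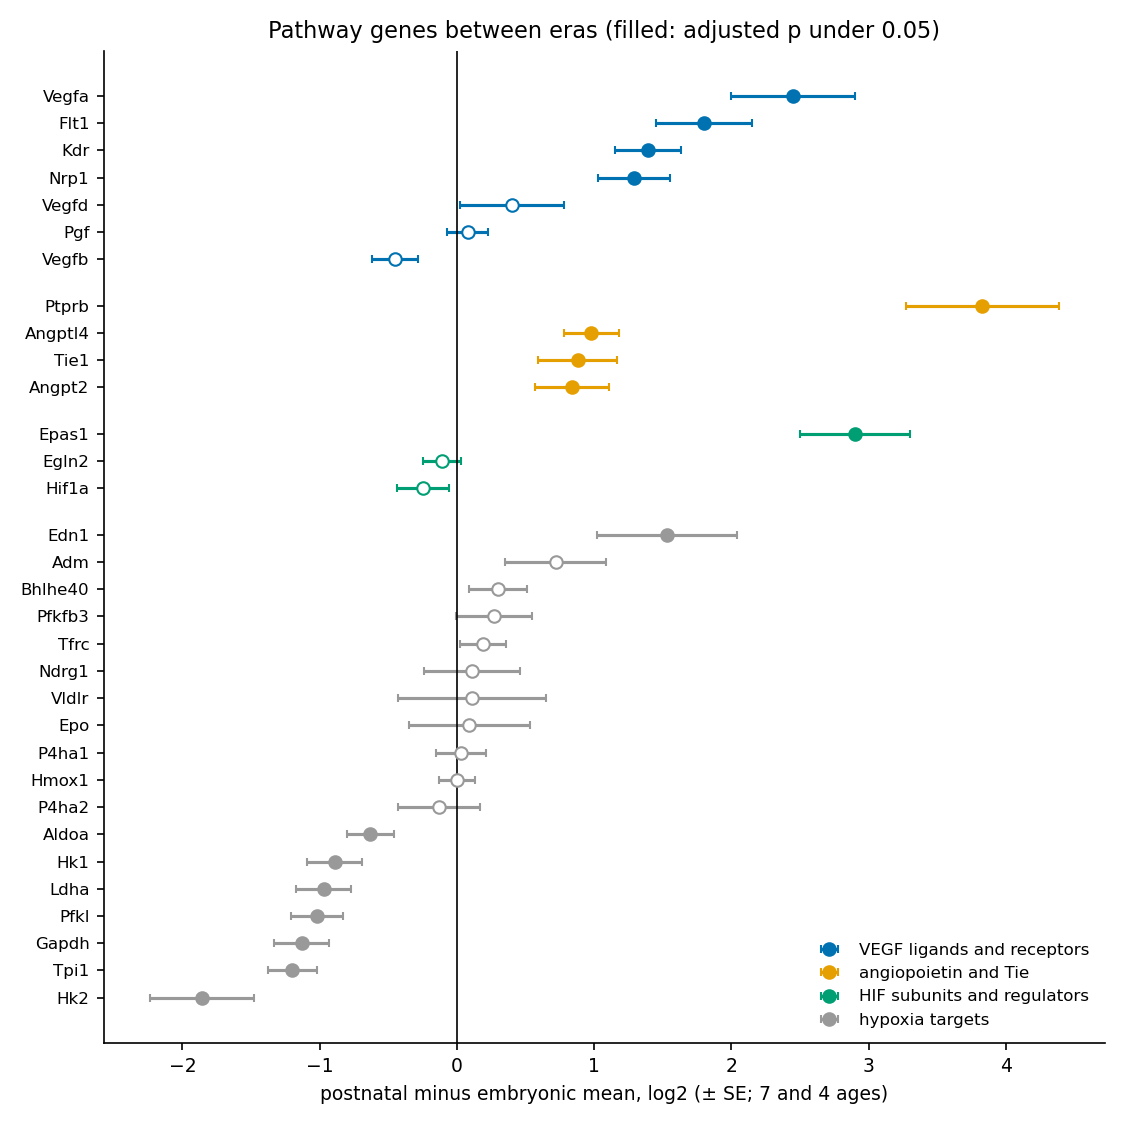
Postnatal minus embryonic mean of log2 signal (7 and 4 ages) with its SE for the kept genes of 4 lists, filled where the adjusted p was under 0.05. Epas1 lies at 2.90 and Hif1a at -0.25, and the 7 glycolytic enzymes called lower lie on the opposite side from Vegfa at 2.45.

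Genes that carry the VEGF receptor signal inside the cell were listed as 28 kinases, adaptors and their targets. Of these 13 were kept, of which 1 rose and 12 did not pass, with a median of 0.08, where 16.8% of all genes were called higher and the median was 0.01. The 1 that rose was Rcan1, a calcineurin inhibitor that VEGF is known to induce in endothelium, at 0.62 ± 0.21 (SE, limma adjusted p = 0.0406), and it did not pass without P1 and P21 or without E12 and P7.

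Markers of other lung cells that can express the members also rose. In the type I cell list 4 of 5 kept genes rose, led by Ager (3.54 ± 1.00), and in the type II cell list 6 of 8, led by Sftpd (4.88 ± 0.71), each past limma's threshold, where 16.8% of all genes were called higher. Without P1 and P21 the counts were 2 of 5 and 5 of 8. Without E12 and P7 they were 2 of 5 and 2 of 8. Ager was not called under either omission. Calls also fell over all genes, from 695 higher with all ages to 554 without P1 and P21 and 274 without E12 and P7. From E16 to E18 the type I list had a median step of 1.5 and the type II list 3.18, beside the 1.45 of Vegfa. From E18 to P1 their medians were -0.17 and 0.04, where Vegfa stood at 1.21. These medians cover genes that split over that step. Sftpd went from 1635.9 to 5636.4 and Sema3b from 276.1 to 528.7. Scd1 went from 6014.9 to 3657.6 and Pdpn from 1198.2 to 974.1. Of 13 kept macrophage and leukocyte genes 12 rose with a median of 0.96, with 10 called without P1 and P21 and 6 without E12 and P7, and their summed signal was 5416 to 19493 before birth and 19204 to 27593 after. Of 8 kept mural cell genes 4 rose, led by Des at 1.38 ± 0.22, and 3 were called under either omission. The T cell list had 1 riser of 4 kept, Thy1, the muscle list 4 of 8 (2 of 8 without E12 and P7), and the platelet list (2 of 10 kept, summed signal 278 to 865) and the squamous list 0 of 2 and 0 of 4 by limma, with 0 at an unadjusted p under 0.05 in both. The part of these cells in the rise of Vegfa, Epas1 and Pecam1 was not tested.

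Over the 11 ages the members resembled each other. The Pearson r of log2 signal was highest for Epas1 with Ptprb (0.981) and lowest for Vegfa with Kdr (0.851), and the other 8 pairs lay between 0.925 and 0.963. The 11 points are the same pools and share a rise around birth, and 129 to 277 of the 4130 genes had an r over 0.9 with a given member, and the median r over all genes was 0.03 to 0.04. The genes closest to Pecam1 were Cd93 (r = 0.986, n = 11 ages), an endothelial surface protein, Aqp1 (0.985) and the membrane linker Msn (0.985). Closest to Vegfa were Ier3, Shroom3 and Ptpn6, each at 0.986, and closest to Epas1 were Cds2 (0.984), the nuclear RNA Neat1 (0.979) and Ctla2a (0.978). Slk (0.987), Sema3b (0.986) and Ccrl2 (0.980) were closest to Ptprb, and Ccdc80 (0.974), Tollip (0.972) and Mprip (0.971) to Kdr. Ier3, like Vegfa, was lower at P4 (1934.7) than at P1 (2816.8) and highest in the adult (4482.6). Its P7 and P10 pools, at 2311.9 and 2282.4, lay above its P4 pool, whereas those of Vegfa lay below. Neat1 read 268.5 at E16, 1394.0 in the E18 pool and 2651.2 after birth at P1, and like Epas1 it had its lowest postnatal pool at P7, at 1784.0. Ccdc80, like Kdr, was highest over P7 to P14 (237.6 to 258.3) and lower at P21 (163.2).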

How the data were processed

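Whole-lung RNA pools of 11 ages (4 embryonic, 7 postnatal, 1 pool of at least 3 lungs each) were measured on 2 Affymetrix chips, 22 arrays in all. The authors deposited 1 linear intensity per probe set and array; the step from probe cells to that value: not given in the sources used here. Per the deposited values, the mean after trimming 2% at each end was 500.1 to 500.2 on chip A and 498.4 to 498.9 on chip B, so the intensities were used as deposited.

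Symbols came from the platform annotation (5554 of 6579 probe sets on chip A and 1986 of 6577 on chip B had 1 symbol). On each chip 55 controls and 1 probe set with missing values were left out. Signals under a chip's 25th percentile were raised to it, a filter required 2 or more of the 11 arrays above the chip median (250.3 on chip A, 176.7 on chip B), and each gene was read from its brightest probe set by mean log2 signal, which left 4130 of 6117 named genes. No probe's level was set against another's. A fold over the floor is a lower bound where the smaller signal lay under it.

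limma 3.58.1 in R 4.3.3 was fitted on the log2 scale (two-sided, Benjamini-Hochberg over all genes kept, threshold 0.05): postnatal against embryonic ages, a line over age order, the line within each era, and a natural spline with 3 degrees of freedom. Pairs of genes were compared by an exact permutation test of their difference. The fits were tested on simulated data. The number of arrays limits precision, and the spread is that between ages. Alternatives changed the floor (10th and 40th percentile), the filter, the normalisation, the rule for several probe sets, the ages fitted and the place of E18. The rule for named genes took the 5 genes, up to 4 called genes per list by size of difference (the largest 2 where none was called), and the 3 nearest to each gene by Pearson r. The members and lists were chosen with earlier results of these data known.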

Additional observations from a re-analysis of the deposited data

Results flagged for a closer look

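In the second Epas1 probe set (d89787_g_at) the E18 pool stood apart from the other embryonic ages. Its gap to the nearest of them took up all of the embryonic range (gap over range 1), because E12, E14 and E16, at 68.7, 48.7 and 53.9, were all raised to the floor of 72.3 and E18 read 402.3. The first Epas1 probe set did not show this, with a gap over range of 0.60 for E18. Of the 12 groups examined this was the 1 that stood out, and chance alone sets a group apart about once in 20.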

How the results depend on the processing

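The higher postnatal level of each of the 5 genes kept its call in 20 of 21 alternatives, and the rising line over age order in 18 of 18. The exception was adding age order to the comparison of eras, where the differences were 1.22 for Vegfa (adjusted p = 0.535), 1.01 for Kdr (0.376), 1.48 for Epas1 (0.349), 1.12 for Pecam1 (0.527) and 2.02 for Ptprb (0.376), and 4 and 1 genes of 4130 were called higher and lower. Era and age order overlap by construction. Counts over all genes, 695 higher and 586 lower between eras, were 342 to 987 and 175 to 883 with 1 age left out, and 274 and 150 without E12 and P7; without those 2 ages 569 genes rose and 509 fell along the line, against 913 and 813. Left out one at a time, the ages gave embryonic slopes of 0.63 to 1.15 for Vegfa and 0.68 to 1.15 for Pecam1; without E16 both were called (0.94, adjusted p = 0.0322, and 0.82, adjusted p = 0.0438). Among pairs, leaving out single ages gave Vegfa minus Ptprb -1.60 to -1.04, Kdr minus Epas1 -1.73 to -1.33, Epas1 minus Pecam1 0.82 to 1.14, Epas1 minus Ptprb -1.12 to -0.68, Vegfa minus Kdr 0.81 to 1.36 (called without E18 and without P10) and Kdr minus Pecam1 -0.77 to -0.35 (called without E18). A floor at the 40th percentile gave Epas1 minus Pecam1 0.47 (adjusted p = 0.269). With that floor Vegfa minus Pecam1 was 0.21, against 0.52, and the embryonic slope of Vegfa was 0.6, against 0.9. Where a cause is not named, the cause was not tested. No direction reversed among the called values. No paired analysis was possible because each age has 1 pool and the labels give no replicate numbers. With 1 pool per age, no replicate error is known. Signals near the floor of Epas1 and Ptprb before E16, and of Vegfa at E12 (91.3, floor 72.3), limit their folds.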
